A study of Danio rerio with 63 samples.

Results

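The 3 genes followed here are the notochord transcription factor genes tbxta (ENSDARG00000101576), tbxtb (ENSDARG00000039806) and noto (ENSDARG00000021201). They were taken by their symbols from a count table of 32057 zebrafish genes, and all 3 were among the 19069 genes with enough counts to be tested. In zebrafish, tbxta (no tail, ntla) and tbxtb are copies of the vertebrate Brachyury gene and encode T-box transcription factors, and tbxta is needed for the notochord and the tail. The noto gene (floating head, flh) encodes a homeodomain transcription factor that keeps axial mesoderm in the notochord fate. All 3 are known as genes of the dorsal or marginal mesoderm, which forms under Nodal signalling: Nodal ligands bind activin-type receptors such as Acvr1b, and the receptors activate Smad proteins that enter the nucleus.

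Polyadenylated RNA was sequenced from explants of zebrafish (Danio rerio) embryos, which had been isolated at about 3 hours and kept in explant medium until they were collected. Donor embryos had received 10 pg of ndr2 mRNA, which encodes a Nodal ligand, or 0.5 pg of CA-acvr1b* mRNA, which encodes a constitutively active Nodal receptor, at the 1-cell stage, and a control group was uninjected. Sampling took in 7 stages, which the labels place at 4 hours after fertilization for sphere, 4.7 hours for 30% epiboly, 5.3 hours for 50% epiboly, 6 hours for the shield stage, 8 hours for 75% epiboly, 9 hours for 90% epiboly and 11 hours for the 2-somite stage. Each of the 21 groups held 3 biological replicates lettered A to C, which gave 63 libraries; how many explants went into a library is not given in the sources used here. The labels give no stock, allele or mutant, so the groups differed by injection and stage alone as far as the labels say.

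Library totals ran from 11756626 to 19650245 counts with a median of 15620678. Levels are given as CPM, the usual counts scaled to library total, here with TMM factors between libraries, and a library without a read of a gene still allows up to 3 counts of it, a floor that lay between 0.144 and 0.275 CPM depending on the library and covers counting error only. The ndr2 gene had 94 to 1180 counts in ndr2 libraries, 0 to 31 in uninjected libraries and 14 to 954 in CA-acvr1b* libraries, and the table does not separate injected from endogenous ndr2. Reads of acvr1ba and acvr1bb were present in every library of all 3 conditions, and the table does not separate CA-acvr1b* from them. Genes of the yolk syncytial layer, which explants should lack, summed to between 0.176 and 6.07 CPM over the 3 tested genes of that list. Enveloping layer genes summed to between 69.4 and 6962 CPM. In bulk RNA, fewer cells of a type and less RNA per cell cannot be told apart, and this holds for every level below.

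The tbxta gene was called higher than in uninjected explants of the same stage from shield on in ndr2 explants. In CA-acvr1b* explants it was called higher from 30% epiboly on. The uncalled ndr2 log2 fold changes at 30% and 50% epiboly, 2.79 and 2.80, were near the 3.12 at shield. The first called stage therefore does not date the rise. Calls were made where the adjusted p fell below 0.05 in edgeR's quasi-likelihood test with Benjamini-Hochberg adjustment over all 19069 genes, in a single fit of all 63 libraries. On that rule tbxta was called higher at 4 of 7 stages for ndr2 and at 6 of 7 for CA-acvr1b*. Its libraries did not overlap those of the uninjected group at 6 and 7 stages. The share of all tested genes without overlap was not counted, so overlap is only described, here and for noto and tbxtb below. The shares of all tested genes called in ndr2 against uninjected were 0.236% at sphere, 0.225% at 30% epiboly, 1.46% at 50% epiboly, 1.07% at shield, 1.81% at 75% epiboly, 2.60% at 90% epiboly and 12.2% at 2-somite. For CA-acvr1b* against uninjected they were 0.0420%, 0.173%, 0.357%, 0.472%, 1.62%, 2.49% and 9.14% at the same stages in that order.

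At sphere, tbxta read 2.06, 5.72 and 10.9 CPM in uninjected libraries A, B and C, 9.66, 19.2 and 21.7 CPM in ndr2 libraries, and 20.6, 16.6 and 16.6 CPM in CA-acvr1b* libraries. The ndr2 range overlapped the uninjected range and the CA-acvr1b* range did not. Neither comparison passed the test, the log2 fold change being 1.43 ± 0.78 (SE) for ndr2, with an edgeR adjusted p of 0.749, and 1.52 ± 0.78 for CA-acvr1b*, with an adjusted p of 0.914.

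At 30% epiboly the uninjected level was at its lowest, 0.712, 0.698 and 1.23 CPM, while the ndr2 libraries read 7.12, 6.00 and 5.66 CPM and the CA-acvr1b* libraries 26.9, 36.5 and 19.3 CPM. The 3 conditions stood in 3 separate ranges. The CA-acvr1b* explants were higher than uninjected by 4.93 ± 0.98 on the log2 scale (edgeR adjusted p = 0.00883), a call that was lost without CA-acvr1b* series B (adjusted p = 0.0712) or uninjected series B (adjusted p = 0.103). For ndr2 the difference was 2.79 ± 1.00 (edgeR adjusted p = 0.396), and it was called in a fit of the 6 libraries alone (0.0146).

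At 50% epiboly tbxta read 5.35, 0.843 and 1.88 CPM in uninjected, 14.1, 12.3 and 31.7 CPM in ndr2, and 263, 188 and 76.0 CPM in CA-acvr1b* explants. Again no range overlapped another. The log2 fold change was 5.99 ± 0.92 for CA-acvr1b* (edgeR adjusted p = 5.98e-05) and 2.80 ± 0.85 for ndr2 (adjusted p = 0.0868); the DESeq2 Wald test called the ndr2 difference (adjusted p = 0.0340), and edgeR did so without uninjected series A (adjusted p = 0.0335).

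At shield, uninjected libraries read 9.02, 4.00 and 10.1 CPM, ndr2 libraries 48.0, 66.3 and 88.1 CPM and CA-acvr1b* libraries 344, 337 and 261 CPM. Each injected group lay wholly above the uninjected group. The rise was 3.12 ± 0.81 for ndr2 (edgeR adjusted p = 0.0411) and 5.34 ± 0.87 for CA-acvr1b* (adjusted p = 0.000184). The ndr2 call was lost without any of the ndr2 series (adjusted p 0.104 without A, 0.188 without B and 0.154 without C), without uninjected series B (0.178) or C (0.0675), and with no filter on low counts (0.0548).

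From 75% epiboly on, tbxta was at 116 CPM or more in every injected library. At 75% epiboly the ndr2 libraries read 684, 394 and 501 CPM and the CA-acvr1b* libraries 562, 426 and 592 CPM, with uninjected libraries at 0.710, 27.4 and 22.0 CPM. Uninjected library A was far below its group, and both injected groups were above every uninjected library. The log2 fold change was 4.97 ± 0.85 for ndr2 and 4.97 ± 0.85 for CA-acvr1b* (edgeR adjusted p = 0.000175 and 0.000128). Neither was called in a fit of the 6 libraries alone (adjusted p = 0.121 and 0.0873).

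At 90% epiboly the ndr2 libraries read 116, 250 and 516 CPM, the CA-acvr1b* libraries 667, 502 and 527 CPM, and the uninjected libraries 0.579, 1.53 and 16 CPM. The ndr2 libraries spread widely, with A lowest, and the uninjected group held a single higher library, C. The log2 fold changes were 5.65 ± 0.89 and 6.59 ± 0.93 (edgeR adjusted p = 4.92e-05 and 2.30e-06), and that of ndr2 was not called in a fit of the 6 libraries alone (0.120).

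At 2-somite, uninjected library A had 0 counts of tbxta and libraries B and C read 0.436 and 4.09 CPM, against 404, 501 and 184 CPM in ndr2 and 555, 120 and 314 CPM in CA-acvr1b* explants. All 6 injected libraries were above all 3 uninjected ones. The log2 fold changes, 7.90 ± 1.02 and 7.76 ± 1.01, were the largest of the course for this gene (edgeR adjusted p = 1.53e-07 and 2.15e-07). The injected means were not. They were 363 CPM in ndr2 and 330 CPM in CA-acvr1b* explants, against 527 CPM in each at 75% epiboly, with overlapping libraries. The uninjected mean was 16.7 CPM at 75% epiboly and 1.51 CPM at 2-somite.

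**Figure D1:**
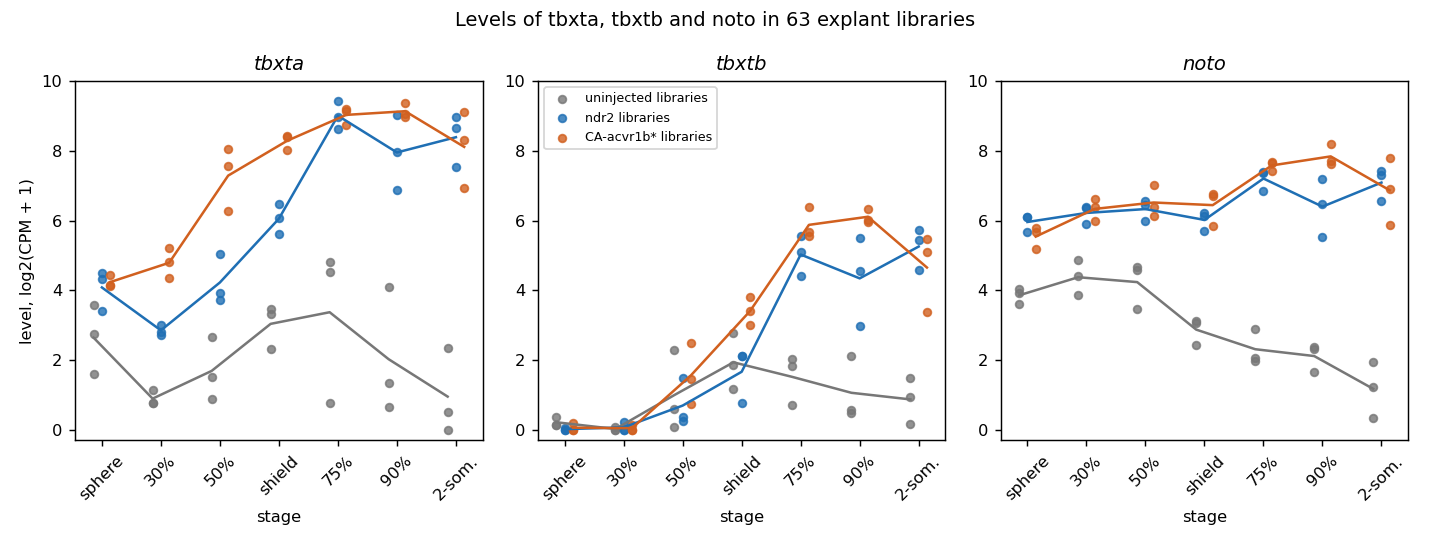
Levels of tbxta, tbxtb and noto as log2(CPM + 1) by stage, with 1 point per library (63 libraries, 3 per condition and stage) and lines through the group means. The injected libraries of all 3 genes lie above the uninjected ones from 75% epiboly to 2-somite, noto is already apart at sphere, and tbxtb is at the floor at sphere and 30% epiboly.

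The noto gene was called higher in ndr2 than in uninjected explants at all 7 stages. In CA-acvr1b* explants it was called higher at 6 of 7, the exception being sphere. The libraries did not overlap at any of the 7 stages in either comparison. At sphere, noto read 11.1, 14.2 and 15.6 CPM in uninjected, 49.8, 67.8 and 68.0 CPM in ndr2, and 54.0, 50.0 and 35.1 CPM in CA-acvr1b* explants. Every injected library exceeded every uninjected one. The log2 fold change was 2.18 ± 0.42 for ndr2 (edgeR adjusted p = 0.00836) and 1.76 ± 0.42 for CA-acvr1b* (adjusted p = 0.0701). The ndr2 call at sphere was lost without ndr2 series B (adjusted p = 0.128) or uninjected series B (0.0720), and the CA-acvr1b* difference was called without uninjected series C (0.0261) and by the DESeq2 Wald test (0.00343).

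At 30% epiboly the uninjected libraries read 13.5, 28.3 and 20.2 CPM, the ndr2 libraries 83.5, 81.3 and 58.6 CPM and the CA-acvr1b* libraries 82.6, 97.5 and 63 CPM. The injected ranges overlapped each other and lay above the uninjected range. The rises were 1.85 ± 0.41 (edgeR adjusted p = 0.0363) and 1.97 ± 0.41 (adjusted p = 0.0186) on the log2 scale. Leaving out any ndr2 or uninjected series ended the ndr2 call (adjusted p 0.203, 0.167 and 0.0595 without ndr2 A, B and C, and 0.0904, 0.136 and 0.0801 without uninjected A, B and C), as did testing without a filter (0.0579). The CA-acvr1b* call ended without CA-acvr1b* series B (0.109) and without uninjected series A, B or C (0.104, 0.0680 and 0.0681).

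At 50% epiboly noto read 10.1, 24.4 and 22.8 CPM in uninjected, 62.3, 86.8 and 92.9 CPM in ndr2 and 130, 83.3 and 68.8 CPM in CA-acvr1b* explants. Each injected library was above every uninjected one. The log2 fold changes were 2.08 ± 0.42 (edgeR adjusted p = 0.00522) and 2.30 ± 0.42 (adjusted p = 0.00119). When only the 6 libraries of each comparison were fitted, neither was called (adjusted p = 0.153 and 0.0698).

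From shield on, the uninjected level of noto was lower and the difference wider. Uninjected libraries read 4.37, 7.45 and 7.73 CPM at shield, ndr2 libraries 51.0, 73.7 and 69.4 CPM and CA-acvr1b* libraries 109, 103 and 57.0 CPM. The injected groups lay close to their own 50% epiboly levels while the uninjected range was below its own. The log2 fold changes were 3.31 ± 0.45 and 3.78 ± 0.46 (edgeR adjusted p = 1.89e-05 and 4.30e-07).

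At 75% epiboly noto read 2.92, 6.46 and 3.21 CPM in uninjected, 164, 115 and 167 CPM in ndr2 and 199, 171 and 203 CPM in CA-acvr1b* explants. All 3 ranges were separate. The rises were 5.12 ± 0.49 and 5.48 ± 0.50 (edgeR adjusted p = 5.88e-10 and 1.50e-10).

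At 90% epiboly the values were 2.15, 4.16 and 4.04 CPM in uninjected, 45.5, 88.2 and 144 CPM in ndr2 and 291, 207 and 197 CPM in CA-acvr1b* libraries. As for tbxta, ndr2 library A was the lowest and C the highest of its group. The log2 fold changes were 4.74 ± 0.49 and 6.06 ± 0.51 (edgeR adjusted p = 4.12e-09 and 9.42e-12).

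At 2-somite the uninjected libraries read 0.269, 1.37 and 2.86 CPM, against 169, 157 and 93.3 CPM in ndr2 and 222, 58.2 and 120 CPM in CA-acvr1b* explants. The injected groups overlapped each other and lay far above the uninjected libraries. The log2 fold changes were 6.53 ± 0.54 and 6.46 ± 0.54 (edgeR adjusted p = 1.98e-12 and 3.17e-12).

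The tbxtb gene was called only at the last 3 stages in both injected conditions. At sphere and 30% epiboly it had between 0 and 6 counts in a library, a single uninjected library exceeding 3 counts, so no fold change is given for these stages. At sphere the uninjected libraries read 0.111, 0.291 and 0.103 CPM, and of the 6 injected libraries only ndr2 B (0.0493 CPM) and CA-acvr1b* C (0.145 CPM) had any count. At 50% epiboly uninjected libraries read 3.90, 0.0703 and 0.530 CPM, ndr2 libraries 1.79, 0.194 and 0.287 CPM and CA-acvr1b* libraries 0.668, 4.63 and 1.76 CPM. All 3 conditions overlapped, and 1 library in each stood well above the other two. The log2 fold changes were -0.99 ± 0.94 for ndr2 (edgeR adjusted p = 0.681) and 0.56 ± 0.85 for CA-acvr1b* (adjusted p = 0.992).

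At shield tbxtb read 2.65, 1.25 and 5.86 CPM in uninjected, 3.32, 0.709 and 3.35 CPM in ndr2 and 7.00, 9.65 and 12.9 CPM in CA-acvr1b* explants. The CA-acvr1b* libraries were above all others, and the ndr2 and uninjected ranges overlapped. Neither difference passed the test, at -0.40 ± 0.81 for ndr2 (edgeR adjusted p = 0.910) and 1.60 ± 0.78 for CA-acvr1b* (adjusted p = 0.619).

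At 75% epiboly tbxtb read 33.3, 20.3 and 46.6 CPM in ndr2 and 46.2, 49.9 and 83.6 CPM in CA-acvr1b* libraries, against 0.631, 3.07 and 2.55 CPM in uninjected libraries. Both injected ranges were apart from the uninjected one. The rises were 3.98 ± 0.84 and 4.82 ± 0.86 on the log2 scale (edgeR adjusted p = 0.00318 and 0.000257).

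At 90% epiboly it read 6.87, 22.7 and 44.0 CPM in ndr2, 79.4, 64.4 and 61.8 CPM in CA-acvr1b* and 0.413, 0.489 and 3.35 CPM in uninjected libraries. The CA-acvr1b* libraries lay close together, and ndr2 library A came nearest to the uninjected group. The rises were 4.16 ± 0.87 (edgeR adjusted p = 0.00278) and 5.64 ± 0.91 (adjusted p = 2.95e-05), and the ndr2 call was lost without ndr2 series C (0.0527) and in a fit of the 6 libraries alone (0.103).

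At 2-somite tbxtb read 42.7, 52.3 and 23.0 CPM in ndr2, 43.5, 9.40 and 33.6 CPM in CA-acvr1b* and 0.135, 0.933 and 1.82 CPM in uninjected libraries. The lowest injected library, CA-acvr1b* B, was still above the highest uninjected one. The rises were 5.33 ± 0.91 and 4.88 ± 0.89 (edgeR adjusted p = 2.93e-05 and 0.000105). The counting of reads that fit both tbxta and tbxtb is not given in the sources used here, so some reads of either copy could have been assigned to the other.

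**Figure D2:**
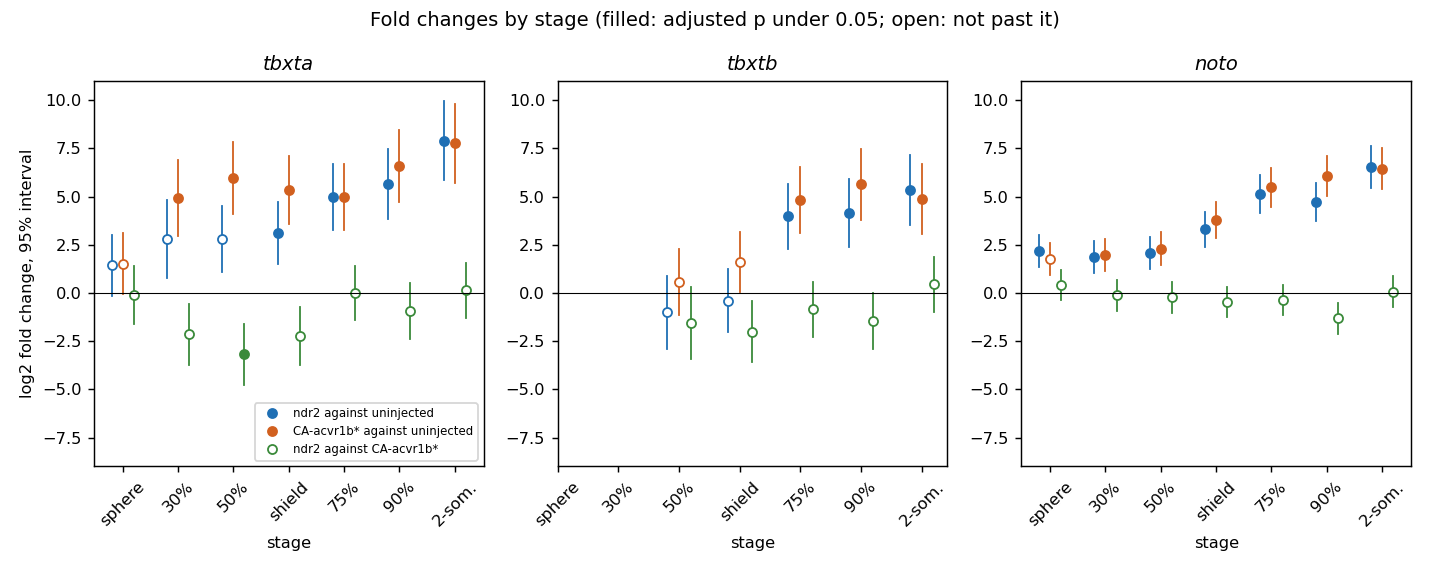
Log2 fold changes (points) with 95% intervals (lines) of tbxta, tbxtb and noto by stage for 3 pairs of conditions, filled where the edgeR adjusted p was under 0.05. Pairs in which both groups were under 0.275 CPM on average are left out. The differences from uninjected at 2-somite are 7.90 for tbxta and 6.53 for noto in ndr2 explants, against 1.43 and 2.18 at sphere. Those of noto do not rise at every stage between. The pair ndr2 against CA-acvr1b* is filled once, for tbxta at 50% epiboly.

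Taken over the 7 stages with equal weights, tbxta was higher in ndr2 than in uninjected explants by 4.10 ± 0.33 on the log2 scale (edgeR adjusted p = 7.99e-13) and higher in CA-acvr1b* explants by 5.30 ± 0.34 (adjusted p = 2.44e-16). For noto the averages were 3.69 ± 0.17 and 3.97 ± 0.18 (edgeR adjusted p = 1.01e-20 and 5.71e-22). Of all genes tested, 17.9% and 6.81% were called in these averages. For tbxtb the averages did not pass, at 1.49 (95% interval -0.57 to 3.55, edgeR adjusted p = 0.351) and 2.38 (0.60 to 4.16, adjusted p = 0.105), and they include the stages at which the gene was at its floor. The DESeq2 Wald test called both (adjusted p = 0.0105 and 6.81e-06), and the share of all genes it called is not given here.

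The fold change depended on the stage for all 3 genes in both comparisons with uninjected explants, tested jointly as the 6 differences from sphere. For noto the F statistic was 16.1 for ndr2 and 20.7 for CA-acvr1b* (edgeR adjusted p = 3.82e-07 and 1.65e-08). For tbxta it was 6.47 and 5.28 (adjusted p = 0.00329 and 0.0161), and for tbxtb 8.33 and 6.00 (adjusted p = 0.000385 and 0.00664). These tests called 5.32% and 3.43% of all genes. The tbxta calls were lost without the 2-somite stage (adjusted p = 0.178 for ndr2 and 0.0877 for CA-acvr1b*); the ndr2 call was also lost without ndr2 series A (0.0518) or B (0.0626). The CA-acvr1b* call for tbxta ended without CA-acvr1b* series A, B or C (0.368, 0.0889 and 0.178) or uninjected series B (0.108). That for tbxtb ended without CA-acvr1b* series A (0.191) or C (0.0822) or uninjected series A (0.205).

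The ligand and the active receptor were also set against each other. At 50% epiboly the tbxta level of ndr2 explants was below that of CA-acvr1b* explants (log2 fold change -3.18 ± 0.78, edgeR adjusted p = 0.0372), with means of 19.4 ± 10.8 CPM (SD, n = 3) and 176 ± 94.1 CPM (SD, n = 3). This was the single called stage of the 7 for tbxta, and 0.718% of all genes were called there. The call was lost without any series of either injected condition (adjusted p 0.194, 0.251 and 0.110 without ndr2 A, B and C, and 0.245, 0.114 and 0.0536 without CA-acvr1b* A, B and C), with no filter (0.0606) and in a fit of the 6 libraries alone (0.223). The flanking stages had non-overlapping libraries in the same direction, with log2 fold changes of -2.14 ± 0.78 at 30% epiboly (edgeR adjusted p = 0.364) and -2.22 ± 0.74 at shield (adjusted p = 0.309); the fit of the 6 libraries alone called both (adjusted p = 0.00248 and 0.000980). In the fit of all 63 libraries the shares of all genes called were 0.267% and 0.205% at these stages. Those of the fits of 6 libraries are not given here.

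From 75% epiboly on, tbxta overlapped between the injected conditions, with log2 fold changes of -0.00033 (95% interval -1.42 to 1.42) at 75% epiboly, -0.94 (-2.38 to 0.49) at 90% epiboly and 0.14 (-1.28 to 1.57) at 2-somite. For noto and tbxtb no stage was called by edgeR or by the DESeq2 Wald test. Without adjustment edgeR's p was under 0.05 at 1 stage for noto and at 2 for tbxtb. Of all 19069 genes tested, 1556 were under this unadjusted threshold at shield and 1375 at 90% epiboly. The noto difference at 90% epiboly was -1.32 ± 0.40 (edgeR adjusted p = 0.164) with libraries that did not overlap. The tbxtb differences were -2.0 ± 0.79 at shield (adjusted p = 0.457) and -1.48 ± 0.72 at 90% epiboly (adjusted p = 0.682), also without overlap. The shares of all genes called were 0.0524% at sphere, 0.231% at 75% epiboly, 0.372% at 90% epiboly and 0.362% at 2-somite.

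Over the 7 stages tbxta averaged -1.20 ± 0.28 in ndr2 against CA-acvr1b* (edgeR adjusted p = 0.00307; 8.99% of all genes were called). The value was -0.27 over 75% epiboly to 2-somite alone (adjusted p = 0.843) and -0.60 when counts were summed over stages before testing (adjusted p = 0.520). For noto the average was -0.29 (95% interval -0.59 to 0.02, edgeR adjusted p = 0.248), and for tbxtb -0.88 (-2.30 to 0.53, adjusted p = 0.496). This difference was not called as dependent on stage for any of the 3 genes by edgeR's quasi-likelihood test with Benjamini-Hochberg adjustment or by DESeq2's likelihood ratio test. The edgeR adjusted p was 0.592 for tbxta and 1 for tbxtb and noto, and 0.110% of all genes were called. Of the 3 genes, tbxta alone was under 0.05 without adjustment. Of all 19069 genes tested, 1037 were under this unadjusted threshold.

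Within a condition, consecutive stages were compared, and a step without a call can still hold a change. In ndr2 explants all 3 genes rose from shield to 75% epiboly, by 2.96 ± 0.76 for tbxta (edgeR adjusted p = 0.00293), 3.75 ± 0.82 for tbxtb (adjusted p = 0.000464) and 1.20 ± 0.40 for noto (adjusted p = 0.0224) on the log2 scale. At this step 25.9% of all genes were called. The noto call was lost without any ndr2 series (adjusted p 0.184, 0.0684 and 0.111 without A, B and C) and with no filter (0.0531), and the tbxta call without series A (0.0696). At the other 5 steps in ndr2 explants no member was called by edgeR; the DESeq2 Wald test called the tbxtb rise from 30% to 50% epiboly (adjusted p = 0.0143), and the shares of all genes called by edgeR were 30.9%, 21.9%, 12.0%, 0.0682% and 8.82% in order of stage.

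In CA-acvr1b* explants the called rises fell at separate steps, and uncalled changes lay between them. From 50% epiboly to shield tbxtb changed by 2.10 ± 0.80, tbxta by 0.84 ± 0.71 and noto by -0.07 ± 0.40 on the log2 scale (edgeR adjusted p = 0.0953, 0.517 and 0.951). From shield to 75% epiboly tbxta changed by 0.75 ± 0.71 (edgeR adjusted p = 0.504). From 30% to 50% epiboly tbxta rose by 2.67 ± 0.76 (edgeR adjusted p = 0.00550), and tbxtb went from at most 2 counts in a library to between 11 and 59 counts (adjusted p = 0.00150), with 31.8% of all genes called. The tbxta call was lost without CA-acvr1b* series A (0.102) and the tbxtb call without series B (0.0766). From shield to 75% epiboly tbxtb rose by 2.60 ± 0.76 (edgeR adjusted p = 0.00965) and noto by 1.1 ± 0.40 (adjusted p = 0.0421), with 22.2% of all genes called. Both were lost without any series of the condition (adjusted p 0.0799, 0.0574 and 0.0946 for tbxtb and 0.0954, 0.0864 and 0.306 for noto without A, B and C), and the noto call also with no filter (0.0854). At the other 4 steps no member was called, and the shares of all genes called were 28.5% from sphere to 30% epiboly, 7.02% from 50% epiboly to shield, 0.131% from 75% to 90% epiboly and 5.36% from there to 2-somite.

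In uninjected explants tbxta fell by 2.79 on the log2 scale (SE 1.00) from sphere to 30% epiboly (edgeR adjusted p = 0.0323; 27.3% of all genes called), a call that was lost without uninjected series B (0.125) or C (0.152). From 30% to 50% epiboly tbxtb went from at most 1 count in a library to 70, 1 and 9 counts in A, B and C (adjusted p = 0.00647; 24.9% of all genes called), and the call was lost without series A (0.289). From 50% epiboly to shield noto fell by 1.55 on the log2 scale (SE 0.44; adjusted p = 0.0104; 17.6% of all genes called), lost without series B (0.0953) or C (0.0849). Without uninjected series A, edgeR also called tbxtb from 50% epiboly to shield (0.0335). No member was called at the 3 later steps by edgeR. There 15.8%, 0% and 10.1% of all genes were called; at the middle step, 75% to 90% epiboly, edgeR called 0 genes, 1287 genes had an unadjusted p under 0.05 and the DESeq2 Wald test called 11. The DESeq2 test also called the fall of noto from 90% epiboly to 2-somite (adjusted p = 0.0485).

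Ordered over the 21 groups, each of the 3 genes had its highest mean in CA-acvr1b* explants at 90% epiboly: 566 ± 89.1 CPM for tbxta, 68.5 ± 9.52 CPM for tbxtb and 232 ± 51.4 CPM for noto (SD, n = 3 each). CA-acvr1b* at 75% epiboly was next for all 3 genes. Neighbours in this order overlapped in 19 of 20 cases for tbxta, 19 of 20 for tbxtb and 17 of 20 for noto, so most adjacent ranks cannot be told apart. For tbxta the single break fell between ndr2 at shield (48.0 to 88.1 CPM) and CA-acvr1b* at 30% epiboly (19.3 to 36.5 CPM). For tbxtb it fell between CA-acvr1b* at shield (7.00 to 12.9 CPM) and uninjected explants at shield (1.25 to 5.86 CPM). For noto 3 breaks were found. The middle of these separated all 14 injected groups, of which the lowest was CA-acvr1b* at sphere (35.1 to 54.0 CPM), from all 7 uninjected groups, of which the highest was 30% epiboly (13.5 to 28.3 CPM).

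The proportions of the 3 genes within a library need no scaling between libraries. Ratios of counts are set side by side only between conditions and stages, since the gene lengths that would turn them into molecule ratios were not used here. In injected explants the noto count was several times the tbxta count early and well below it late. At 30% epiboly there were 1035 to 1354 noto counts per 100 tbxta counts in ndr2 libraries and 267 to 326 in CA-acvr1b* libraries. At shield there were 78.8 to 111 in ndr2 and 21.9 to 31.6 in CA-acvr1b* libraries.

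At the last 3 stages the 18 injected libraries held between 23.9 and 50.6 noto counts per 100 tbxta counts, with CA-acvr1b* means of 36.6 ± 3.17, 40.7 ± 3.11 and 42.2 ± 5.41 and ndr2 means of 28.8 ± 4.74, 34.1 ± 5.63 and 41.2 ± 9.68 (SD, n = 3) at 75% epiboly, 90% epiboly and 2-somite. These groups varied little beside the uninjected ones, whose libraries spanned 14.6 to 411 at 75% epiboly and 25.3 to 371 at 90% epiboly. The uninjected ratios of 411 and 371 rest on 9 and 7 tbxta counts, where counting error is large. Injected libraries held at most 2.80 tbxtb counts per 100 tbxta counts at sphere and 30% epiboly and between 4.87 and 14.1 at the last 3 stages; this change with stage was not tested.

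The log2 ratios (0.5 added to each count) were compared between conditions by a two-sided permutation test. It shuffled conditions within stages (100000 resamples, p-values adjusted over 6 tests). With every replicate kept, tests over all 7 stages used 21 libraries per condition. Tests over the last 3 stages used 3 libraries per condition at each of these stages. Over 75% epiboly to 2-somite, a span chosen after seeing the data, the tbxtb to tbxta ratio was lower than in uninjected explants by a log2 difference of -2.69 for ndr2 (adjusted permutation p = 0.00234) and -2.31 for CA-acvr1b* (adjusted permutation p = 0.00399). Between the injections it differed by -0.38 (adjusted permutation p = 0.0806). Over all 7 stages the differences were -3.07, -3.38 and 0.31 (adjusted permutation p = 3e-05, 3e-05 and 0.429; the raw p of the first pair, 1e-05, is the smallest these resamples can give). These values over all stages include sphere and 30% epiboly, where most injected libraries had no tbxtb count and the ratio was set by the added 0.5 and the tbxta count. The late values have a limit of their own, since some uninjected ratios rest on few tbxta reads. Uninjected library A had 9 tbxta counts at 75% epiboly and 7 at 90% epiboly. At 2-somite, uninjected libraries A and B had 0 and 7. The ratio of uninjected A at 2-somite thus depended on the added 0.5. The noto to tbxta ratio was lower than in uninjected explants in CA-acvr1b* by a log2 difference of -1.92 (adjusted permutation p = 8e-05, 7 of 7 stages). For ndr2 it was -0.97 (adjusted permutation p = 0.0211, 5 of 7 stages), which passed neither without replicate A (-0.73, adjusted p = 0.0835) or B (-0.76, 0.208) nor without the 2-somite stage (-0.67, 0.126).

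Between the injections the noto to tbxta ratio was higher in ndr2 by 0.95 (adjusted permutation p = 0.00036) and higher at 4 of 7 stages, the early ones. Over 75% epiboly to 2-somite alone the sign was reversed, at -0.22 (adjusted permutation p = 0.0588). The letters of the replicates were not used as pairs in these tests, which treat libraries of different stages as independent.

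**Figure D3:**
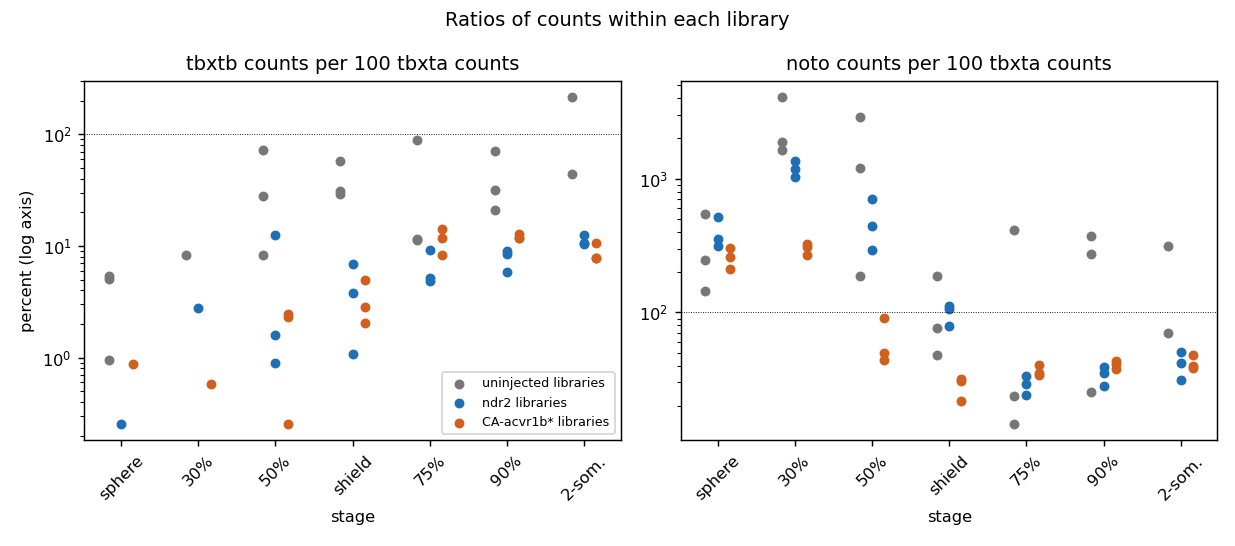
Counts of tbxtb (left) and noto (right) per 100 counts of tbxta in each library, on log axes; the dotted line marks 100. Libraries with 0 counts of tbxtb are not drawn on the left, nor is the uninjected 2-somite library with 0 counts of tbxta. The noto ratio of injected libraries is 211 or more at sphere and 30% epiboly and between 23.9 and 50.6 at the last 3 stages.

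The replicate libraries of the late injected groups were also put in order by each of the 3 genes. In 4 of the 6 groups the same library was lowest for all 3 genes and in 4 the same library was highest. The whole order was the same in 2 groups. How often other genes shared an order was not counted, and 3 libraries allow few orders. In ndr2 explants at 90% epiboly the order was C, B, A for each gene, tbxta running from 116 to 516 CPM, tbxtb from 6.87 to 44.0 CPM and noto from 45.5 to 144 CPM. In CA-acvr1b* explants at 2-somite it was A, C, B, tbxta running from 120 to 555 CPM, tbxtb from 9.40 to 43.5 CPM and noto from 58.2 to 222 CPM.

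The summed level of 20 tested genes of tail and posterior mesoderm followed the same order in these 2 groups, at 3107, 3603 and 4173 CPM in A, B and C of ndr2 at 90% epiboly and 4579, 2172 and 3147 CPM in A, B and C of CA-acvr1b* at 2-somite. The summed level of 15 notochord and axial mesoderm genes did so as well, at 1262, 1364 and 1589 CPM and at 4338, 2791 and 3278 CPM. The epidermal list did not, at 19010, 21638 and 17422 CPM and at 19889, 21081 and 22383 CPM. These groups were picked because the 3 genes shared an order there. In the remaining late injected groups the 3 genes did not share an order; the tail list read 4653, 4507 and 4438 CPM in A, B and C of ndr2 at 75% epiboly, in an order that none of the 3 genes had. In CA-acvr1b* at 75% and 90% epiboly the notochord list, at 2512, 2161 and 2443 CPM and at 2899, 3015 and 2330 CPM, likewise had an order of none of the 3 genes. The tail list read 3488, 5076 and 3212 CPM in ndr2 at 2-somite, 4221, 4047 and 4541 CPM in CA-acvr1b* at 75% epiboly and 4494, 4038 and 4143 CPM in CA-acvr1b* at 90% epiboly. The notochord list read 1502, 1255 and 1547 CPM in ndr2 at 75% epiboly and 3302, 3447 and 2754 CPM in ndr2 at 2-somite. Each of these matched the order of tbxta or of another of the 3 genes. The part of the makeup of these libraries in the spread of the 3 genes was not tested. Genes with many counts weighed most in the summed levels. Over the 63 libraries sall4 of the tail list had 2259355 counts, with tbx16 next at 483757. In the notochord list lamc1 and lamb1a had 444139 and 372539 counts, with chrd next at 218659. At 90% epiboly the notochord sum averaged 1405 CPM in ndr2 and 1655 CPM in uninjected explants.

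**Figure D4:**
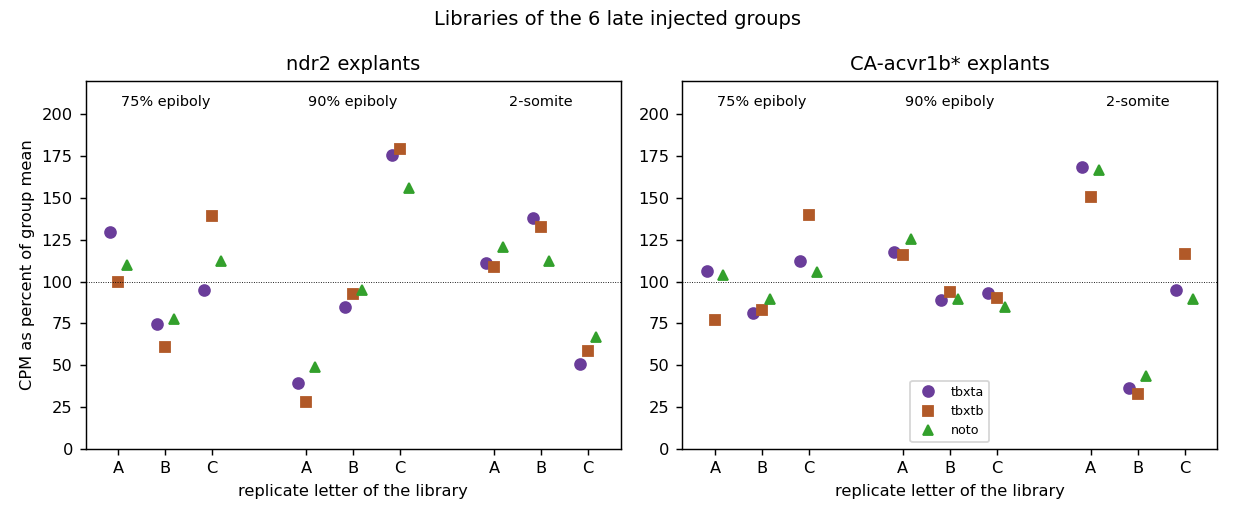
Levels of tbxta, tbxtb and noto in each library of the 6 injected groups from 75% epiboly to 2-somite, as percent of the gene's own group mean (dotted line at 100). The 3 genes share an order of libraries in ndr2 at 90% epiboly, where A is lowest and C highest. They also do in CA-acvr1b* at 2-somite, where B is lowest and A highest. In the remaining groups their orders differ.

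The genes whose group means over the 21 groups were most like each member were ranked by Pearson's r of log2(CPM + 1). Compared were the 12670 other genes that had a gene symbol rather than an identifier alone and whose mean reached 5 CPM in some group. These are descriptions over groups that share stages, libraries and the response to injection. For tbxta they were fgf8a, a secreted fibroblast growth factor (r = 0.978), pcdh8, a protocadherin of the paraxial mesoderm (0.976), tph1b, a tryptophan hydroxylase (0.955), arg2, an arginase (0.939), and fgf24, another fibroblast growth factor (0.936). The level of fgf8a was 44.0 ± 9.15 CPM in CA-acvr1b* and 25.3 ± 13.2 CPM in ndr2 explants at 90% epiboly, against 0.737 ± 0.501 CPM in uninjected ones (SD, n = 3). The level of pcdh8 was 153 ± 26.3, 89.3 ± 77.9 and 1.29 ± 1.49 CPM in the same groups.

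For tbxtb the genes were NAV1 (1 of many), a neuron navigator gene (r = 0.966), nradd (0.964), cdh2, which encodes N-cadherin (0.953), prickle1a, of planar cell polarity (0.953), and foxj1b, a transcription factor of ciliated cells (0.948). The level of cdh2 was 8.19 ± 1.43 CPM in CA-acvr1b* explants at sphere and 352 ± 58.9 CPM at 90% epiboly. Of these 5, 2 were among the top 5 with a pseudocount of 0.1 and 2 with Spearman's correlation, against 4 and 4 for tbxta and 5 and 3 for noto.

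For noto the genes were prickle1b, the other prickle1 copy (r = 0.948), foxd3, a forkhead transcription factor (0.94), admp, a BMP-family ligand of the dorsal organizer (0.936), nrip1a, a nuclear receptor cofactor (0.920), and chrd, the secreted BMP antagonist Chordin (0.914). In uninjected explants prickle1b stood at 33.4 ± 15.4 CPM at sphere and 9.77 ± 4.32 CPM at 2-somite, and it was at 160 ± 27.8 CPM in CA-acvr1b* explants at 90% epiboly (SD, n = 3). Among the members, r was 0.856 between tbxta and tbxtb, 0.786 between tbxta and noto and 0.545 between tbxtb and noto.

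The wider setting was read from gene lists, described by counts and medians. For comparison, among all genes tested at 2-somite 7.40% were called higher and 4.84% lower in ndr2 and 6.46% and 2.68% in CA-acvr1b* explants; at 75% epiboly the shares were 0.991% and 0.823%, and 1.22% and 0.399%. At 50% epiboly they were 0.509% and 0.949%, and 0.330% and 0.0262%. On average over the stages they were 7.71% and 10.2%, and 3.90% and 2.91%. Of 20 tested genes of tail and posterior mesoderm linked to Tbxta, 18 rose and 1 fell at 2-somite in ndr2 explants (median log2 fold change 5.53), and 16 rose and none fell in CA-acvr1b* explants (median 4.26), where the median over all genes was 0 in both. At 75% epiboly 8 rose in each condition, a rise being a call above uninjected explants of the same stage. The summed level of this list averaged 3967 CPM at 50% epiboly and 643 CPM at 2-somite in uninjected explants. It averaged 5565 and 3925 CPM at these stages in ndr2 explants and 4450 and 3300 CPM in CA-acvr1b* explants. On average over the stages pcdh8 rose by 4.18 ± 0.55 in ndr2 and 6.07 ± 0.35 in CA-acvr1b* explants (edgeR adjusted p = 2.20e-07 and 8.92e-18), and fgf24 rose by 4.00 ± 0.46 and 4.09 ± 0.67 (adjusted p = 9.57e-09 and 1.98e-05).

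Of 15 tested notochord and axial mesoderm genes, 8 rose and 1 fell at 2-somite in ndr2 explants (median 1.83) and 9 rose in CA-acvr1b* explants (median 2.18). At 50% epiboly 2 rose and 1 fell in ndr2 (median -0.28), and 3 rose in CA-acvr1b* explants (median 0.28). On average over the stages 3 of the 15 rose and 2 fell in ndr2 (median 0.29), and 6 rose and 1 fell in CA-acvr1b* explants (median 0.59). Of those with the largest average changes, foxa3, a forkhead factor of axial mesoderm and endoderm, rose by 5.10 ± 0.23 and 6.65 ± 0.24 (edgeR adjusted p = 9.05e-21 and 2.37e-24), and chrd rose by 4.88 ± 0.26 and 6.5 ± 0.28 (adjusted p = 1.96e-18 and 5.05e-22). The level of shhb, a Hedgehog ligand gene of the midline, was 27.8 ± 11.1 CPM in ndr2 and 54.2 ± 36.9 CPM in CA-acvr1b* explants at 2-somite, and it had 0 counts in the 3 uninjected libraries. Among the listed genes not tested, shha had 3 counts over all 63 libraries and col2a1a had 0; the table cannot tell whether they were unread or uncounted, and the cause was not tested.

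Between the injections 7 of the 15 notochord and axial genes were called lower in ndr2 on average over the stages and none was called higher (median -0.92), against 5.56% and 3.42% of all genes. Of the 10 tested genes of prechordal plate and hatching gland, 2 of which share the symbol ctslb, 6 rose at 2-somite in ndr2 explants (median 3.53). In CA-acvr1b* explants 7 did (median 4.79). At 75% epiboly 2 rose and 1 fell in ndr2, and 5 rose and 1 fell in CA-acvr1b* explants. On average over the stages 1 rose in ndr2 (median 0.53) and 3 in CA-acvr1b* explants (median 1.81). The listed gsc and dkk1b had 0 counts and were not tested. Within this list, frzb, a secreted Wnt antagonist, stood at 27.0 ± 17.0 CPM in ndr2, 286 ± 222 CPM in CA-acvr1b* and 1.72 ± 0.561 CPM in uninjected explants at 2-somite (SD, n = 3). The list of 13 tested Nodal pathway genes holds ndr2, acvr1ba and acvr1bb, whose counts can include injected mRNA. Without these, 6 of 10 rose in each injected condition at 75% epiboly (medians 2.75 and 2.92), where 8 of 13 rose with them. At 2-somite 3 of the 10 rose and 1 fell in ndr2 and 4 rose and 1 fell in CA-acvr1b* explants (medians -0.05 and 0.23). The Nodal antagonist lft1 averaged 3.93 ± 0.35 and 5.15 ± 0.34 (edgeR adjusted p = 6.04e-12 and 2.91e-16).

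Genes of other tissues moved as well, and their part in the levels of the 3 genes was not tested. Of 9 epidermal genes, 5 fell in ndr2 and 6 in CA-acvr1b* explants at 2-somite (medians -1.56 and -1.62). Their summed level at 2-somite was 28521 to 35620 CPM in uninjected, 16819 to 23965 CPM in ndr2 and 19889 to 22383 CPM in CA-acvr1b* libraries. The epidermal regulator tp63 fell on average by 1.61 (SE 0.28) in ndr2 and by 1.25 (SE 0.27) in CA-acvr1b* explants on the log2 scale (edgeR adjusted p = 4.05e-05 and 0.00185). Of 5 tested genes that oppose dorsal axial fate, 3 fell in each condition on average, bmp4 by 1.02 (SE 0.22) in ndr2 and by 0.78 (SE 0.21) in CA-acvr1b* explants (adjusted p = 0.000679 and 0.0156). At 2-somite the 3 fell in both conditions, and vent and vox, transcriptional repressors of dorsal genes, rose in ndr2 explants by 1.87 ± 0.47 and 1.08 ± 0.29 (edgeR adjusted p = 0.00459 and 0.00712). In CA-acvr1b* explants vent and vox stood at 0.37 ± 0.46 and 0.12 ± 0.28 (adjusted p = 0.765 and 0.900).

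Of 5 endodermal genes, 3 rose and 1 fell on average in CA-acvr1b* explants (median 4.23), and 1 rose and 1 fell in ndr2 explants (median 0.14). The endodermal regulator sox32 averaged 5.90 ± 0.48 in CA-acvr1b* and 2.05 ± 0.61 in ndr2 explants (edgeR adjusted p = 2.74e-13 and 0.0139). Of 4 floor plate genes, 3 rose at 2-somite in CA-acvr1b* and 2 in ndr2 explants (medians 5.53 and 4.03). Of 7 tested enveloping layer genes, 1 fell on average in each condition, anxa1a, by 0.78 (SE 0.17) and 0.63 (SE 0.17) on the log2 scale (adjusted p = 0.000524 and 0.00976), a count of 1 in 7 that is near the share of all genes called lower in ndr2.

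**Figure D5:**
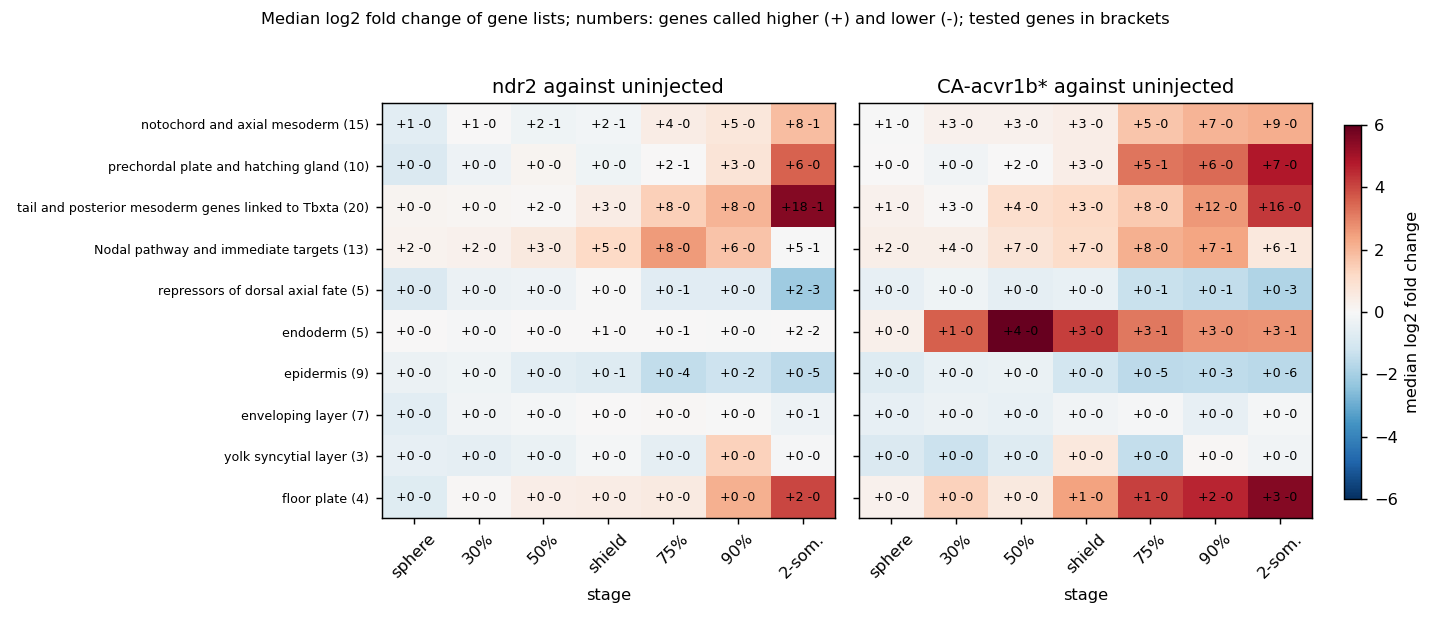
Median log2 fold change (colour) of 10 gene lists against uninjected explants by stage, for ndr2 (left) and CA-acvr1b* (right), with the number of genes called higher (+) and lower (-) in each cell and the number tested in brackets. The tail and posterior mesoderm list goes from 0 genes called higher at sphere in ndr2 explants to 18 of 20 at 2-somite, and the epidermal list has only genes called lower at 2-somite, 5 and 6 of 9. In uninjected explants the summed level of the tail list averaged 3967 CPM at 50% epiboly and 643 CPM at 2-somite.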

How the data were processed

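The values are whole-number read counts per gene as deposited, with 1 column per library; per the submitters' processing notes, Trim Galore, STAR and featureCounts were used with GRCz11 (danRer11), in versions that are not given in the sources used here. The use of strand and the treatment of reads shared by 2 genes are likewise not given. From these counts, genes were filtered with filterByExpr over the 21 groups (minimum count 10, minimum total 15), scaled by TMM and fitted with edgeR 4.0.16 in R 4.3.3 (quasi-likelihood, robust, edgeR's default prior count, 42 residual degrees of freedom), with p-values adjusted by Benjamini-Hochberg over 19069 genes. Log2 fold changes are from this fit. Errors after ± are SE for fold changes and SD for levels. The SE was back-calculated as the size of the fold change divided by the square root of F. The 95% intervals were built from this SE and the t distribution. DESeq2 1.42.0 was an alternative, as were other scaling, no filter, leaving out replicates, and fits of fewer libraries. The shares of all genes called are those of the edgeR fit of all 63 libraries and do not hold for these alternatives. Ratios were tested in Python 3.11.15 with numpy 2.4.6. The fitting code was tested on simulated counts with known changes and the same dispersion for every gene. Such counts do not show how the fit handles the spread of the 3 members.

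The 3 members and the gene lists were chosen with earlier results of these data known. Beside the members, the genes named were the 5 most like each member, up to 4 called genes per list with the largest average change, and the injected genes; shha, col2a1a, vent and vox were named from the lists after their values were seen. The labels call replicates biological without saying what separated them. No 2 libraries of a group were identical, and the lowest chi-square per gene between them was 5.16. Replicate letters were not treated as pairs.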

Additional observations from a re-analysis of the deposited data

Results flagged for a closer look

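The size of the difference from uninjected explants varied with stage for each of the 3 genes, by the joint test of the stage differences in edgeR. In ndr2 explants the adjusted p of this dependence was 0.00329 for tbxta, 0.000385 for tbxtb and 3.82e-07 for noto. In CA-acvr1b* explants it was 0.0161 for tbxta, 0.00664 for tbxtb and 1.65e-08 for noto. The fold changes behind these tests were larger at 2-somite than at sphere for tbxta and noto in both conditions, and tbxtb was at its floor at sphere. Uninjected explants are shared by both sets of tests.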

How the results depend on the processing

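Of the alternatives run, 706 of 749 kept the side of the threshold for single stages and 410 of 432 for consecutive stages. For averages over stages 127 of 135 did so, for dependence on stage 97 of 108 and for ratios 36 of 42. A change of sign counted as a loss only where either fit called the difference, so uncalled differences could change sign. Without the 2-somite stage the dependence of tbxta on stage had an F of 4.14 for ndr2 and 5.14 for CA-acvr1b* and was not called in either. With a replicate left out it ranged from 4.46 to 9.15 for tbxta in ndr2, from 3.21 to 7.90 for tbxta in CA-acvr1b* and from 3.29 to 6.97 for tbxtb in CA-acvr1b* explants. The tbxtb averages were called with counts summed over stages (3.37 and 4.10), by the DESeq2 Wald test (1.44 and 2.35) and over 75% epiboly to 2-somite (4.49 and 5.12), an average chosen after seeing the data. The tbxta average of ndr2 against CA-acvr1b* was not called with summed counts (-0.60) or over the late stages (-0.27). Its number of called stages was 0 with no filter, 2 in fits of 6 libraries, and from 0 to 0 with a replicate left out. The noto to tbxta ratio of ndr2 against uninjected ranged from -1.40 to -0.73 with a replicate left out and was -0.67 without 2-somite. Over the late stages alone, also chosen after seeing the data, the ratio differed from uninjected by -1.85 in ndr2 and by -1.63 in CA-acvr1b*, neither passing, and -0.22 between the injections, with the sign reversed. The cause of these changes was not tested.

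Libraries with the same letter did not deviate together (median r = -0.012 over 63 pairs, 12 over 0.1). For different letters the median r was 0.011 over 126 pairs, with 32 over 0.1. A library was also compared with the 3 libraries of another condition at its stage. In 18 of 63 such comparisons the best correlation was with its own letter. With the letter as a replicate block the averages were 4.13, 5.37 and -1.24 for tbxta, 1.51, 2.40 and -0.89 for tbxtb and 3.70, 3.99 and -0.30 for noto, and the numbers of stages called were as without it. At sphere and 30% epiboly tbxtb had at most 6 counts in any library, and differences between conditions were not detectable at this depth.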
